A study of Homo sapiens with 6 samples.

Results

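The cyclins, the cyclin-dependent kinases (CDKs), their inhibitors, the CDC25 phosphatases and the E2F and pocket proteins were followed in C4-2 cells after chemical inhibition or siRNA depletion of DNA-PKcs. The genes were taken by symbol, with a naming pattern for these families, among genes that carried a named probeset on the array. The families themselves were chosen with earlier results of these data known. Of the 14812 genes tested, 59 met that rule. They comprised 28 cyclin genes, 2 of them (CCNYL4 and CCNYL6) pseudogenes, and 18 CDK genes, with the rest divided among CDC25 phosphatases, inhibitors, E2Fs and pocket proteins. By role, 5 genes act in G1, 5 at entry into and through S phase, 6 in G2 and mitosis, and 13 in transcription. A further 8 are E2F and pocket proteins, 2 carry inhibitor names, and 12 cyclins and 8 CDKs have other or less settled roles. Each gene was represented by its brightest probeset, which was the only named probeset for every gene except CCND2. No filter on dim genes was applied, so all 59 were tested. The protein-coding genes CCNA1, CCNI2, CCNQ, CDK3, CDKN1A, CDKN1B, CDKN1C, CDKN2B, CDKN2C, CDKN2D, E2F4, E2F5 and E2F6 fit the naming pattern but have no named probeset in the annotation used, and are not analysed here. The pattern took CDK symbols that end in a number. CDK11A, a CDK gene with a named probeset, ends in a letter and was therefore left out, so the set does not hold every measured family member.

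A CDK is inactive until a cyclin binds it. D-type cyclins with CDK4 or CDK6 begin to inactivate the pocket proteins in G1, which frees E2F factors to switch on cyclin E, cyclin A and the replication machinery. Cyclin A and cyclin B with CDK1 then carry the cell through G2 into mitosis, and their transcripts are high only in cells that approach division. A separate branch of the family (cyclins C, H, K, L and T with CDK7, CDK8, CDK9, CDK12, CDK13 and CDK19) works on RNA polymerase II and the Mediator complex and does not oscillate in this way. In prostate cancer, androgen signalling feeds into the G1 part of the pathway through the D-type cyclins.

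The data were 6 Affymetrix GeneChip Human Gene ST arrays of total RNA from C4-2, an established human prostate cancer line derived from LNCaP, grown in medium containing hormones. There were 3 groups of 2 arrays. The first received NU7441, an ATP-competitive DNA-PKcs inhibitor, at 1 µM for 24 h, the second was transiently depleted of DNA-PKcs by transfection, 96 h long, of pooled siRNAs that target PRKDC, and the third was treated with the vehicle DMSO. Whether the DMSO cells also received the control siRNA pool that the protocol mentions is not stated for each group, and no treatment time is labelled for the controls. The labels call the arrays biological replicates without describing separate cultures, so p-values measure the spread between these samples. No probeset is named for PRKDC in the annotation used, so the depletion itself is not analysed here.

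The 2 NU7441 arrays differed from each other more than the other pairs did. The median standard deviation of log2 intensity over the 59 genes was 0.228 for NU7441, 0.0881 for knockdown and 0.0574 for control, and 6 genes (CCNE2, CCNF, CCNH, CCNY, CDC25C and CDK10) differed by more than 2-fold between the NU7441 arrays, against 0 in either other group. All 6 were lower on NU7441 replicate 1. That array also had 3797 probesets at or just above 16, the lowest value, against 1471 on NU7441 replicate 2. The counts were 973 and 1206 after knockdown and 452 and 444 in controls. Median intensities over all probesets were 24.6 and 26 under NU7441, 28.4 and 27.6 after knockdown, and 31.5 and 31.6 in controls. The median log2 fold change of all genes was -0.23 for NU7441 over control and -0.09 for knockdown over control, and quantile normalization brought both to 0.01. Of the luminal prostate markers, 6 were measured, with summed intensities of 3230 to 3560 under NU7441, 2690 to 2800 after knockdown and 2820 to 2920 in controls. The 3 basal and 2 stromal markers measured had single intensities of at most 63.2 and 36.9, where the lowest value on the arrays was 16. The 63.2 was KRT5 on NU7441 replicate 1, against 25.7 and 26.6 in controls. Of the 2 leukocyte markers, CD68 reached 160 and LYZ did not exceed 29.8.

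NU7441 against control asked how kinase inhibition altered these transcripts. All 6 G2/M genes fell, as did 3 of 5 S-phase genes and 5 of 8 E2F and pocket protein genes. CCNG1, CCNG2, CCNI, RBL2, CDK5 and 4 transcription kinases rose, and none of the 5 G1 genes passed the test. By limma, with p-values adjusted over all genes by the method of Benjamini and Hochberg and a threshold of 0.05, 20 of the 59 genes were lower and 9 were higher. Over all genes tested 22.4% were lower and 10.8% higher, or 33.2% in either direction. These shares depend on brightness. At a mean log2 intensity from 7 to 8, 6 of 15 members rose and 3 fell, where 30.8% and 24.6% of all genes did. Above 8, 3 of 12 rose and 5 fell, where 39.0% and 28.5% did. From 6 to 7, 0 of 11 rose and 7 fell, beside 17.4% and 23.4%. The genes that rose thus all lay at 7 or more, where rises were common among all genes. The median log2 fold change of the 59 genes was -0.49. Both NU7441 arrays lay below both control arrays for 32 of the 59 genes, where 47.3% of all genes did so, and above them for 21, where 22.7% did. The number of calls was 12 without control replicate 1, 9 without control replicate 2 and 47 without NU7441 replicate 2. CCNA2, CCNB1, CCNB2, CCNG1, CDC25B, CDK1, CDKN3 and E2F1 passed under all 15 alternatives tried, and a further 17 genes lost the call only where an array was left out. In bulk RNA, fewer cells in a phase and less RNA per cell cannot be told apart.

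**Figure D1:**
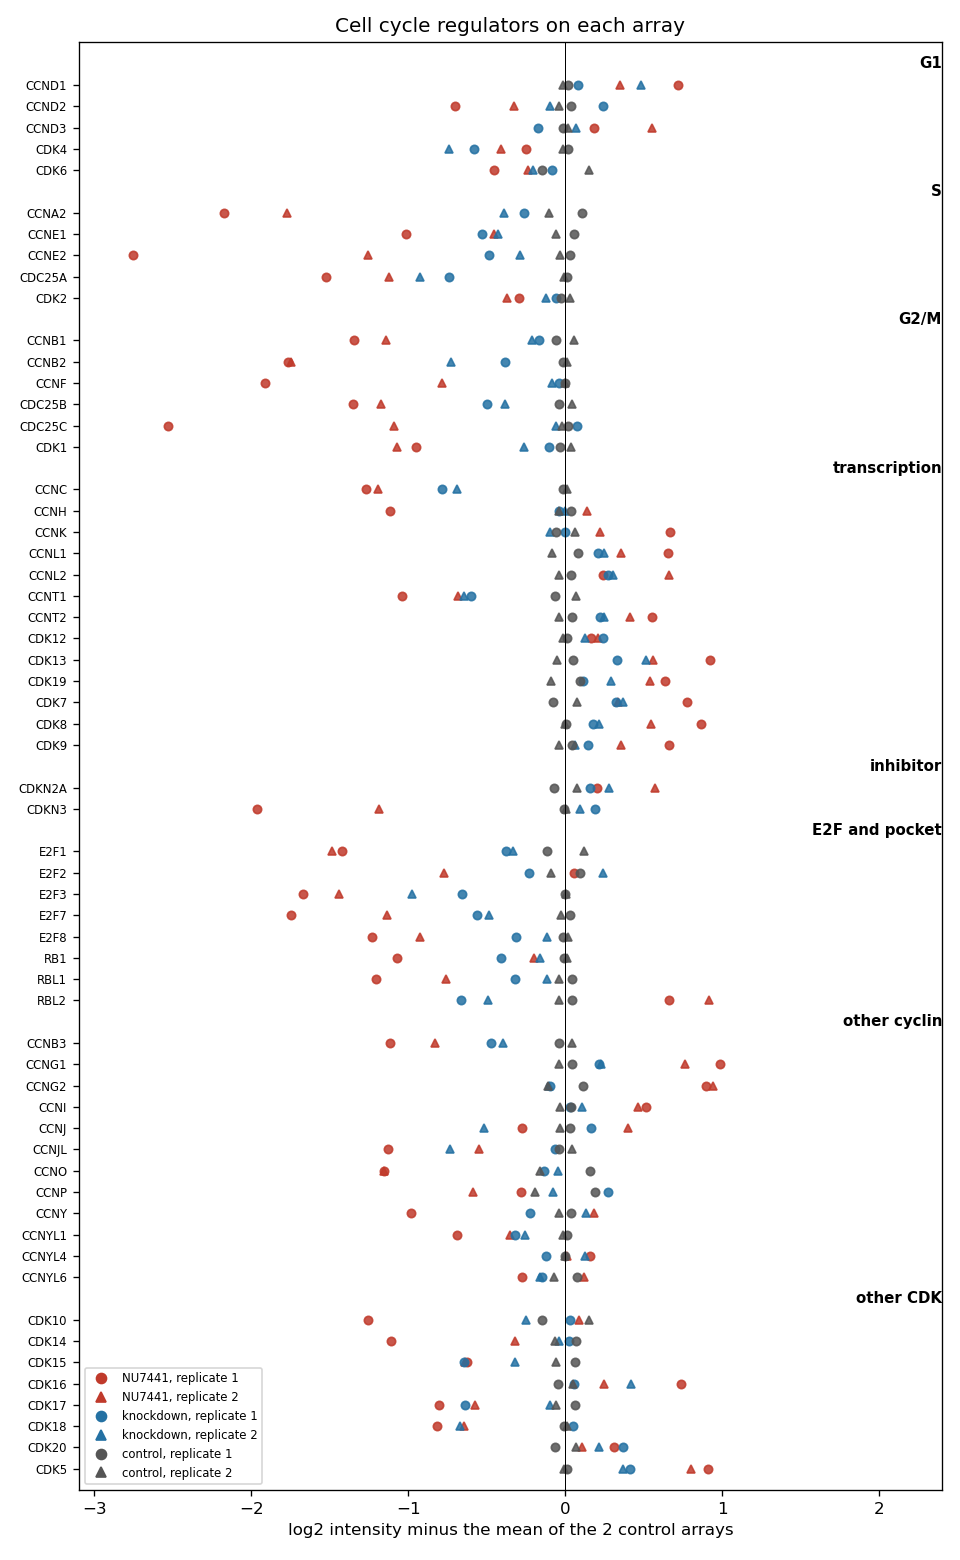
Log2 intensity of each gene on each of the 6 arrays, as the difference from the mean of the 2 control arrays (x axis), with genes grouped by role down the page (red, NU7441; blue, knockdown; grey, control; circles, replicate 1; triangles, replicate 2). The S and G2/M genes lie left of the controls on both NU7441 arrays, the knockdown points sit nearer to the controls for most of them, and RBL2 lies right of the controls under NU7441 and left of them after knockdown.

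The cyclins were set side by side in 4 classes. The S cyclins CCNA2, CCNE1 and CCNE2 had a median log2 fold change of -1.97 under NU7441 and the G2/M cyclins CCNB1, CCNB2 and CCNF of -1.35. The G1 cyclins CCND1, CCND2 and CCND3 had a median of 0.37 and the 7 transcription cyclins of 0.44, each beside the -0.23 of all genes. Neither of these 2 classes moved as a whole. CCND2 was at -0.52, and 3 of the 7 transcription cyclins were negative. Of those 7, 2 were called lower and 0 higher. On the single arrays, the median difference from the control mean was -2.17 and -1.25 for S cyclins and -1.77 and -1.14 for G2/M cyclins under NU7441, so replicate 1 was the lower in both classes. The transcription cyclins stood at 0.24 and 0.22 and the G1 cyclins at 0.18 and 0.34 on the same arrays. These medians are descriptions of 3 to 7 genes and were not tested.

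**Figure D2:**
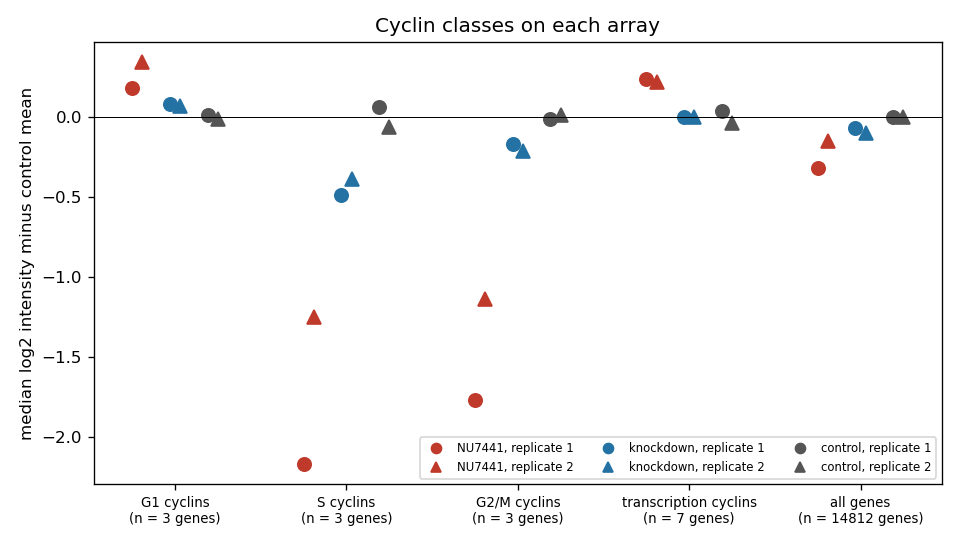
Median over the genes of a cyclin class (y axis, log2 intensity minus the mean of the 2 control arrays) on each array, with all 14812 genes at the right (red, NU7441; blue, knockdown; grey, control; circles, replicate 1; triangles, replicate 2). S and G2/M cyclins lie at -1.14 or lower on both NU7441 arrays, while G1 and transcription cyclins lie at 0.18 or higher.

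None of the G1 genes passed the test under NU7441. CCND1, the cyclin D1 that activates CDK4 and CDK6, had intensities of 215 and 166 under NU7441, 138 and 182 after knockdown, and 132 and 129 in controls. Both NU7441 arrays were above both controls, with a log2 fold change of 0.53 ± 0.21 (SE, n = 2 per group, limma adjusted p = 0.0740), and the gene passed with median centring at 0.85 (adjusted p = 0.0162). CDK4 stood at 474 and 423 under NU7441, 376 and 337 after knockdown and 569 and 557 in controls. Both NU7441 arrays were below the controls, but the difference of -0.33 ± 0.12 did not pass (adjusted p = 0.0635). It was -0.01 with median centring, and it passed under 2 of 15 alternatives, namely without NU7441 replicate 1 (-0.41) and when dim genes were removed. The other D-type cyclins and CDK6, the alternative partner of these cyclins, were dim. CCND2 had 18.3 and 23.7 under NU7441, 35.2 and 27.8 after knockdown, and 30.6 and 29.0 in controls. CDK6 had 22.9 and 26.6 under NU7441, 29.6 and 27.2 after knockdown, and 28.3 and 34.8 in controls. CCND3 had 56.4 and 72.9 under NU7441, 44.0 and 52.2 after knockdown, and 49.2 and 50.2 in controls. Both NU7441 arrays were thus below the controls for CCND2 and CDK6 and above them for CCND3. Their log2 fold changes under NU7441 were -0.52 ± 0.22 for CCND2, -0.34 ± 0.22 for CDK6 and 0.37 ± 0.25 for CCND3. None of the 3 passed. The second CCND2 probeset was also dim, at 17.6 to 28.1.

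Of the S-phase genes, 3 of 5 fell. CCNA2, the cyclin A2 that serves both S phase and mitotic entry, had intensities of 115 and 152 under NU7441, 433 and 396 after knockdown, and 559 and 482 in controls. The NU7441 arrays lay far below the other 4, and CCNA2 fell 3.93-fold (log2 fold change -1.97 ± 0.17, adjusted p = 3.02e-04). CCNE2, the cyclin E2 that activates CDK2 at the G1/S boundary, had 37.8 and 107 under NU7441, 182 and 209 after knockdown, and 261 and 250 in controls. Its log2 fold change was -2.01 ± 0.39 (adjusted p = 0.00596), -1.25 without NU7441 replicate 1 and -2.76 without NU7441 replicate 2, and the call was lost without either control replicate. CDC25A, a phosphatase that activates CDK2, had 31.5 and 41.6 under NU7441, 54.1 and 47.7 after knockdown, and 91.3 and 89.9 in controls, and fell by 1.32 ± 0.24 (adjusted p = 0.00494). Its call was also lost without either control replicate.

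The other 2 S-phase genes were below the controls without passing the test. CCNE1 had 34.0 and 50 under NU7441, 47.5 and 50.9 after knockdown, and 71.4 and 65.9 in controls (-0.73 ± 0.26, adjusted p = 0.0550). CDK2, the kinase partner of cyclins E and A, had 391 and 371 under NU7441, 460 and 440 after knockdown, and 471 and 489 in controls (-0.33 ± 0.11, adjusted p = 0.0501). The CDK2 value was -0.02 with median centring, while CCNE1 remained negative there at -0.42. CDK2 passed under 4 of 15 alternatives and CCNE1 under 3, among them for both the fit with dim genes left out.

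All 6 G2/M genes fell under NU7441, each with both arrays below both controls. CCNB1, the cyclin B1 that drives mitotic entry with CDK1, had 450 and 519 under NU7441, 1020 and 988 after knockdown, and 1100 and 1190 in controls, a fall of 2.37-fold (-1.24 ± 0.10, adjusted p = 2.70e-04). CCNB2 had 180 and 182 under NU7441, 470 and 369 after knockdown, and 607 and 618 in controls, a fall of 3.39-fold (-1.76 ± 0.15, adjusted p = 2.84e-04). For both cyclins the 2 NU7441 arrays were close together and apart from the other 4.

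CDK1 itself, the mitotic kinase, had 255 and 234 under NU7441, 459 and 411 after knockdown, and 480 and 505 in controls. It fell by 1.01 ± 0.13 on the log2 scale (adjusted p = 0.00121), less than its cyclin partners by point estimate, a difference between genes that was not tested. CDC25B, a phosphatase that activates CDK1 before mitosis, had 74.3 and 83.8 under NU7441, 134 and 145 after knockdown, and 184 and 195 in controls (-1.26 ± 0.18, adjusted p = 0.00190). Its NU7441 arrays agreed closely, which was not so for the remaining pair of genes. CDC25C, another activator of CDK1, had 18.8 and 51.0 under NU7441, 114 and 104 after knockdown, and 110 and 107 in controls (-1.81 ± 0.39, adjusted p = 0.00954). CCNF, a substrate receptor of an SCF ubiquitin ligase, had 26.5 and 58.0 under NU7441, 97.1 and 94.4 after knockdown, and 100 and 100 in controls (-1.35 ± 0.33, adjusted p = 0.0151). Without NU7441 replicate 1 the log2 fold changes were -1.09 for CDC25C and -0.79 for CCNF, and both genes lost the call without either control replicate.

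Several of the genes that fell are textbook targets of E2F and of the DREAM and B-MYB/FOXM1 complexes, which act through the cell cycle homology region (CHR), the CCAAT box and the E2F site. To show these letters, the promoters of CCNB1, CCNB2, CCNF, CDK1 and CDC25C among the G2/M genes, of CCNA2 and E2F1, and of CDK8, a transcription kinase that rose, are printed below from RefSeq (GRCh38.p14). Each stretch holds the 150 bases before an annotated start, 5′ to 3′ on the gene's strand. Capitals mark matches on either strand to the CHR (TTTGAA), the CCAAT box (CCAAT) or the E2F core, which was searched as TTCCCGC and in its related spellings TTGGCGC along with TTCGCGC and finally TTGCCGC. Where a gene had several starts, the one with most matches was taken.
CCNB1, chr5:69167000-69167149, + strand: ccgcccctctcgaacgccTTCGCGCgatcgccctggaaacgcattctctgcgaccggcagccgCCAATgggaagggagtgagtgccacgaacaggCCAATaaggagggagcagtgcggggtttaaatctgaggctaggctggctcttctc
CCNB2, chr15:59104996-59105145, + strand: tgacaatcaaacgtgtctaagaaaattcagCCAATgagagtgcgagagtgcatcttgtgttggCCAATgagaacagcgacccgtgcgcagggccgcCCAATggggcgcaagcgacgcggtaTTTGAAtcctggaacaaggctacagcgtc
CCNF, chr16:2429297-2429446, + strand: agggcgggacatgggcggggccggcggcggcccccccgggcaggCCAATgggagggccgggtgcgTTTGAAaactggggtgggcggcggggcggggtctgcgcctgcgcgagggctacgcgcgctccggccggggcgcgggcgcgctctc
CDK1, chr10:60778328-60778477, + strand: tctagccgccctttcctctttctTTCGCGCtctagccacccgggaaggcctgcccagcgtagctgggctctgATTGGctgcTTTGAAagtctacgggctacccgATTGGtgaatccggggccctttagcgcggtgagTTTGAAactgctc
CDC25C, chr5:138331805-138331954, - strand: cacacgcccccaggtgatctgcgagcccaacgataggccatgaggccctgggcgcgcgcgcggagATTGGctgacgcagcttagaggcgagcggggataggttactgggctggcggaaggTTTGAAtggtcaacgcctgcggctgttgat
CCNA2, chr4:121823884-121824033, - strand: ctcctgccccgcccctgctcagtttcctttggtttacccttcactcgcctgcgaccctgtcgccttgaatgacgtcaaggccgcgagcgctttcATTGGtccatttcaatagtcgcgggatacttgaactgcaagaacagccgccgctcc
E2F1, chr20:33686386-33686535, - strand: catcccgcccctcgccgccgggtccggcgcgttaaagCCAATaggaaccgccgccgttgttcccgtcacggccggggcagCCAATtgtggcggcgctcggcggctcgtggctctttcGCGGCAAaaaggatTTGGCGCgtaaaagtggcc
CDK8, chr13:26253979-26254128, + strand: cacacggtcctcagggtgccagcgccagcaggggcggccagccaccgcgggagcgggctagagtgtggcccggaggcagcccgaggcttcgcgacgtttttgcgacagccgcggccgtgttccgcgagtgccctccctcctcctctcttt

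CCNB2, CCNF, CDK1 and CDC25C thus hold a CHR downstream of at least 1 CCAAT box in these stretches. CCNB1, CCNA2 and E2F1 hold CCAAT boxes without these CHR letters, E2F1 has 2 E2F cores, and CDK8 has no match. Unlike the E2F core, the CHR was searched in the spelling TTTGAA only, so a CHR spelled otherwise was not counted here or below. In the table's full window, 250 bases before to 50 after a start, 52 of the 59 genes were found with 81 starts, many of which overlap within a gene. Of the 18 matched genes that fell under NU7441, 7 held a CHR and 10 an E2F core at 1 or more starts, as did 3 and 1 of the 9 that rose and 2 and 4 of the 25 that were not called. The genes that rose and held a CHR were CCNI, CDK19 and RBL2, and CDK19 also held an E2F core. The printed CDK8 stretch thus does not stand for all genes that rose. Counted by start, a CHR stood in 9 of 31 windows of genes that fell (29.0%) and an E2F core in 12 (38.7%). Of the 16 windows of genes that rose, 3 held a CHR (18.8%) and 1 an E2F core (6.25%). Of the 34 windows of genes not called, 2 held a CHR (5.88%) and 4 an E2F core (11.8%). Among windows of all measured genes the shares were 12.1% and 16.3%, and among all 35116 windows 15.2% and 13%. No match overlapped a match to another of the 3 motifs in these genes. A match is a description of the letters and not of binding. The motifs were chosen with earlier results of these data known, so these shares are not a test.

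Of the genes with inhibitor names, CDKN3 fell. It encodes a phosphatase that removes the activating phosphate from CDKs and whose transcript is itself high in dividing cells. CDKN3 had 194 and 333 under NU7441, 861 and 806 after knockdown, and 753 and 760 in controls. It fell 2.98-fold under NU7441 (-1.58 ± 0.21, adjusted p = 0.00133), and its knockdown arrays lay above the controls. CDKN2A, which encodes the CDK4 inhibitor p16 and the p53 stabiliser ARF, was near the bottom of the scale, with 23.5 and 30.3 under NU7441, 22.8 and 24.8 after knockdown, and 19.4 and 21.5 in controls. Its log2 fold change of 0.39 ± 0.19 did not pass (adjusted p = 0.146), and it passed after quantile normalization and with median centring.

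The E2F and pocket protein genes split. E2F1, an activator of S-phase genes, had 109 and 104 under NU7441, 225 and 232 after knockdown, and 269 and 317 in controls, and fell 2.74-fold (-1.46 ± 0.16, adjusted p = 7.72e-04). E2F3, another activator, had 27.8 and 32.7 under NU7441, 56.3 and 45.1 after knockdown, and 88.4 and 89.0 in controls (-1.56 ± 0.24, adjusted p = 0.00246). The 2 NU7441 arrays were the lowest of the 6 for both genes. E2F7 and E2F8, the atypical repressors that E2F1 itself induces, also fell, by 1.44 ± 0.26 (adjusted p = 0.00432) and 1.08 ± 0.20 (adjusted p = 0.00465). E2F7 had 30.4 and 46.4 under NU7441, 69.2 and 72.8 after knockdown, and 104 and 100 in controls. E2F8 had 71.7 and 88.4 under NU7441, 135 and 155 after knockdown, and 166 and 170 in controls. For both repressors the groups lay in the order NU7441, knockdown and control with no overlap. Their calls were lost without either control replicate, and the E2F3 call was lost without control replicate 2. E2F2 was dim and its groups overlapped (20.5 to 41.4 over all arrays).

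RBL1 and RBL2 moved in opposite directions under NU7441. Each stayed inside the 10th to 90th percentile of all genes of like brightness. The lower edge for RBL1 was -1.244 and the upper edge for RBL2 was 0.9. RBL1 encodes p107, a pocket protein that accumulates in cycling cells, and had 87.7 and 119 under NU7441, 162 and 186 after knockdown, and 208 and 196 in controls (-0.98 ± 0.20, adjusted p = 0.00727). RBL2 encodes p130, the pocket protein that dominates in resting cells and forms the DREAM repressor with E2F4. It had 296 and 354 under NU7441, 118 and 133 after knockdown, and 193 and 182 in controls, and rose 1.73-fold under NU7441 (0.79 ± 0.17, adjusted p = 0.00890). After knockdown both arrays were below the controls, without passing the test (-0.58 ± 0.17, adjusted p = 0.114). RB1, the retinoblastoma protein gene, had 62.8 and 115 under NU7441, 99.3 and 118 after knockdown, and 131 and 133 in controls (-0.64 ± 0.28, adjusted p = 0.104). The calls of RBL1 and RBL2 were lost without either control replicate.

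In the transcription branch 10 of 13 genes lay above both controls on both NU7441 arrays, as 22.7% of all genes did. CDK8, CDK19, CDK13 and CDK7 rose and CCNC and CCNT1 fell, which is 30.8% higher and 15.4% lower. Of all genes with a mean log2 intensity from 7 to 8, where 8 of these 13 lie, 30.8% were higher and the median log2 fold change was 0.16. Above 8, where CCNH and CDK19 lie, 39.0% were higher. The share of transcription genes that rose was thus near that of genes of like brightness.

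The kinases and cyclins of the Mediator kinase module moved oppositely. CCNC, the cyclin C that activates CDK8 and CDK19, had 39.5 and 41.6 under NU7441, 55.2 and 59.2 after knockdown, and 94.4 and 96.2 in controls, and fell 2.35-fold (-1.23 ± 0.22, adjusted p = 0.00428). CDK8 had 298 and 239 under NU7441, 185 and 190 after knockdown, and 164 and 163 in controls (0.71 ± 0.17, adjusted p = 0.0133). CDK19 had 494 and 463 under NU7441, 344 and 389 after knockdown, and 339 and 299 in controls (0.59 ± 0.13, adjusted p = 0.0112). The NU7441 arrays were the highest for both kinases and the lowest for their cyclin. These 3 calls were lost without either control replicate.

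The elongation factor P-TEFb, made of cyclin T and CDK9, had 1 call, in CCNT1. CCNT1 had 77.5 and 99.2 under NU7441, 105 and 102 after knockdown, and 152 and 167 in controls (-0.86 ± 0.20, adjusted p = 0.0128), and it did not pass with median centring (-0.54, adjusted p = 0.0646). CCNT2 had 121 and 110 under NU7441, 96.4 and 98.1 after knockdown, and 84.9 and 80.3 in controls (0.48 ± 0.19, adjusted p = 0.0813). CDK9 had 229 and 185 under NU7441, 160 and 151 after knockdown, and 149 and 141 in controls (0.51 ± 0.18, adjusted p = 0.0533). CCNT2 and CDK9 were thus above both controls without passing, and each passed with median centring.

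Of the remaining transcription genes, CDK13, which with cyclin K phosphorylates RNA polymerase II, had 216 and 168 under NU7441, 143 and 163 after knockdown, and 118 and 110 in controls (0.74 ± 0.19, adjusted p = 0.0186). CDK7, the kinase of TFIIH and of the CDK-activating complex, had 294 and 217 under NU7441, 215 and 222 after knockdown, and 163 and 181 in controls (0.55 ± 0.18, adjusted p = 0.0431). The CDK7 call was lost under 9 of 15 alternatives, and the CDK13 call without either control replicate. CCNH, the cyclin partner of CDK7, had 221 and 528 under NU7441, 466 and 478 after knockdown, and 492 and 466 in controls, so its NU7441 arrays fell on either side of the controls. CCNK, CCNL1, CCNL2 and CDK12 had log2 fold changes from 0.19 to 0.50 under NU7441, none past the threshold.

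**Figure D3:**
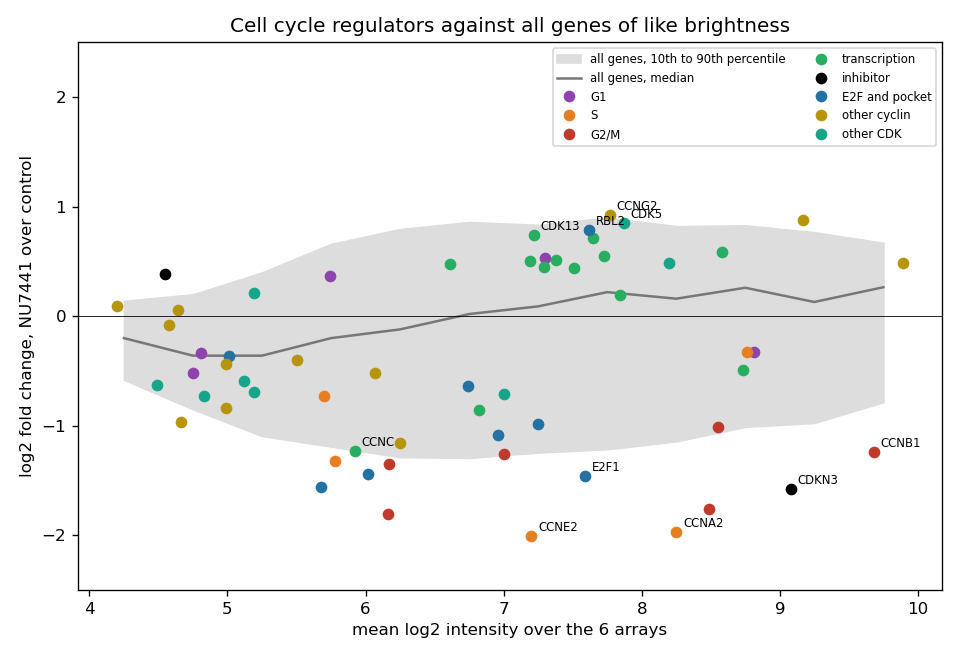
Log2 fold change of NU7441 over control (y axis) against the mean log2 intensity over the 6 arrays (x axis) for the 59 genes, coloured by role, over the median (line) and the 10th to 90th percentile (grey band) of all genes in brightness steps. Of the 59 genes 14 lie below the band and 3 (CCNG1, CCNG2 and CDKN2A) above it. Those below include 3 S, 4 G2/M and 3 E2F genes, while 12 of the 13 transcription genes lie inside it.

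Among the other cyclins, CCNG1, CCNG2 and CCNI rose and CCNO and CCNB3 fell. CCNG1, the cyclin G1 known as a p53 target, had 884 and 757 under NU7441, 517 and 523 after knockdown, and 459 and 433 in controls, and rose 1.84-fold (0.88 ± 0.11, adjusted p = 0.00126). CCNG2, a FOXO target associated with cell cycle arrest, had 336 and 347 under NU7441, 169 and 168 after knockdown, and 195 and 167 in controls, and rose 1.89-fold (0.92 ± 0.16, adjusted p = 0.00347). Under NU7441 both stood above all other arrays, though the CCNG2 call was lost without control replicate 2. CCNI had 1190 and 1150 under NU7441, 849 and 895 after knockdown, and 853 and 813 in controls (0.49 ± 0.08, adjusted p = 0.00372), a call lost without the mean-variance trend. CCNO, known for its role in multiciliated cells, fell, with 45.5 and 45.5 under NU7441, 92.2 and 98.0 after knockdown, and 113 and 90.6 in controls (-1.16 ± 0.22, adjusted p = 0.00549). CCNB3, a meiotic cyclin, was dim, with 16.2 and 19.7 under NU7441, 25.3 and 26.7 after knockdown, and 34.1 and 36.1 in controls, and was called lower (-0.97 ± 0.19, adjusted p = 0.00655). The CCNO and CCNB3 calls were lost without either control replicate. The other 7 genes of this class had log2 fold changes from -0.84 to 0.09 and did not pass.

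Of the CDKs outside the classical cycle, CDK5, a kinase best known from neurons and activated by p35 rather than by a cyclin, rose. CDK5 had 331 and 306 under NU7441, 234 and 227 after knockdown, and 177 and 175 in controls (0.85 ± 0.15, adjusted p = 0.00359). The 3 groups did not overlap, though the call was lost without control replicate 2. CDK15 was near the bottom of the scale, with 18.9 and 18.7 under NU7441, 18.6 and 23.3 after knockdown, and 30.4 and 27.9 in controls, and was called lower (-0.63 ± 0.18, adjusted p = 0.0260), but not after quantile normalization, with median centring or with an offset of 15 taken off. CDK10, CDK14, CDK16, CDK17, CDK18 and CDK20 had log2 fold changes from -0.73 for CDK18 to 0.49 for CDK16, none past the threshold. CDK18 had 20.5 and 23.1 under NU7441, 37.5 and 22.7 after knockdown, and 36.0 and 36.4 in controls.

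**Figure D4:**
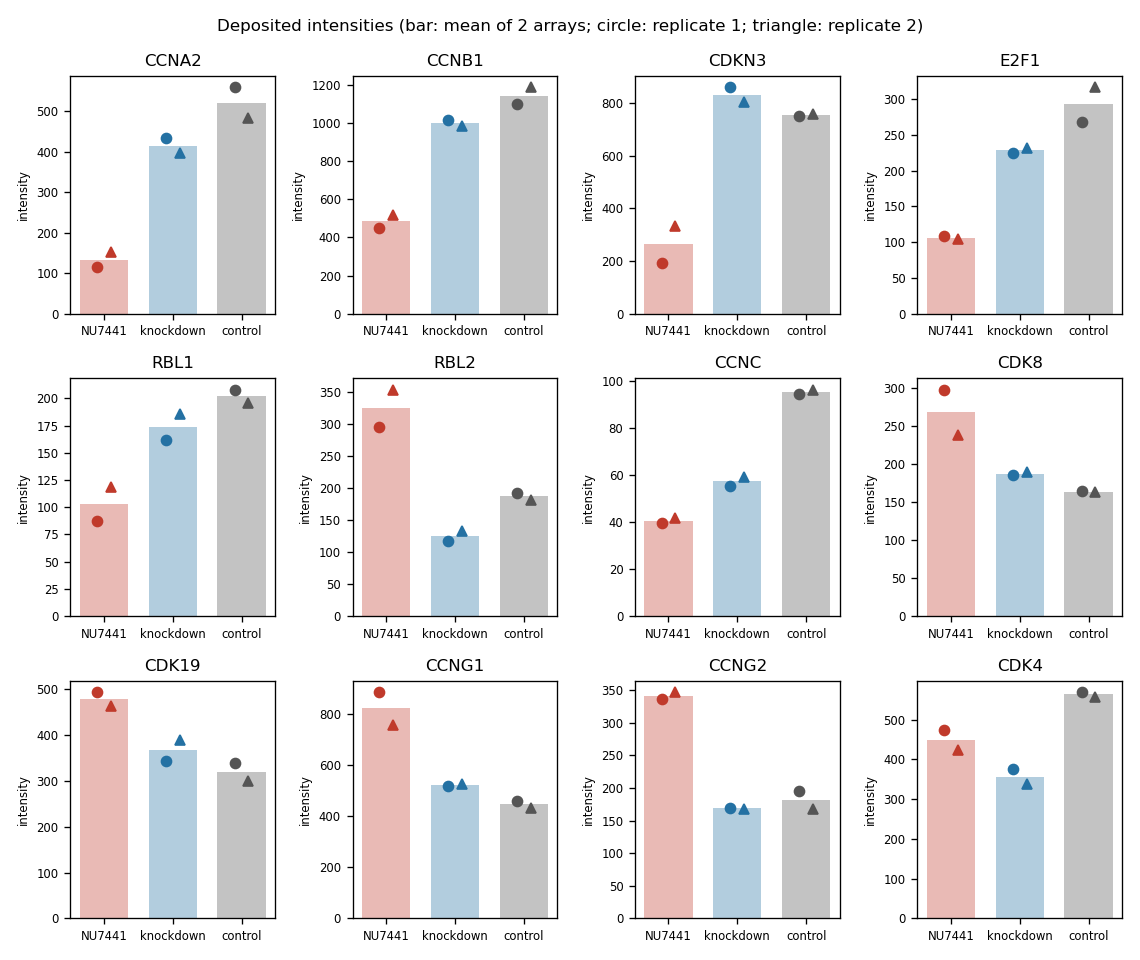
Deposited linear intensities of 12 genes (y axes, each starting at 0) in NU7441, knockdown and control cells, with bars for the mean of 2 arrays and points for each array (circles, replicate 1; triangles, replicate 2). CCNA2, CCNB1, CDKN3, E2F1, RBL1 and CCNC are lowest under NU7441, whereas RBL2, CDK8, CDK19, CCNG1 and CCNG2 are highest there and CDK4 is lowest after knockdown.

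Knockdown against control compared cells given PRKDC siRNAs for 96 h with the DMSO cells. No siRNA or time is labelled for the controls, so transfection, culture time and depletion cannot be told apart here. Of the 59 genes 1 passed, CDK4, the D-type cyclins' kinase, which fell 1.58-fold (-0.66 ± 0.12, adjusted p = 0.0484). Over all genes tested 0.77% passed, with 0.486% lower. Both knockdown arrays for CDK4 were below all other arrays, at 376 and 337 against 569 and 557 in controls. The call was lost under 9 of 15 alternatives, among them median centring (-0.49, adjusted p = 0.0754) and leaving out any of the 4 arrays compared.

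The count after knockdown depended on whether the NU7441 arrays contributed to the estimate of spread. With only the knockdown and control arrays in the model, 14 of the 59 genes passed, 12 lower and 2 higher, and 19.2% of all genes passed. With array weights by group, 9 passed, when 18.0% of all genes did. The 12 lower genes in the first of these fits were CDC25A (-0.83, adjusted p = 0.00388), E2F3 (-0.82, adjusted p = 0.00551), CCNC (-0.74, adjusted p = 0.00605), CDK4, CCNT1, RBL2, CCNB2, E2F7, CDC25B, CCNE2, E2F1 and CCNA2. The 2 higher ones were CDK13 (0.42, adjusted p = 0.0425) and CDK5 (0.39, adjusted p = 0.0300).

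By class, the medians after knockdown were -0.39 for S cyclins, -0.19 for G2/M cyclins, 0.07 for G1 cyclins and -0.02 for transcription cyclins, beside -0.09 for all genes. With median centring they were -0.21, -0.02, 0.24 and 0.15, so that the G2/M value came close to 0 and the transcription value changed sign. All 5 S-phase genes lay below the controls on both knockdown arrays, as did 5 of 6 G2/M genes and 7 of 8 E2F and pocket genes, where 38.2% of all genes did. Of all 59 genes 26 lay below both controls and 16 above, where 23.4% of all genes lay above. At an unadjusted p under 0.05, 10 of the 59 were lower and 1 was higher, where 12.9% and 6.68% of all genes were, so the lower count was near the background and the higher count below it. CDC25C, at 114 and 104 after knockdown against 110 and 107 in controls, and CDKN3, at 861 and 806 against 753 and 760, were not lower. CDC25A, E2F3 and CCNC had the lowest log2 fold changes of the 59 after knockdown, at -0.83 ± 0.24, -0.82 ± 0.24 and -0.74 ± 0.22, with adjusted p of 0.113, 0.117 and 0.117 in the fit of all 6 arrays.

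Knockdown against NU7441 tested the difference between the treatments itself. Of the 59 genes 13 were higher after knockdown than under NU7441 and 4 were lower, where 5.83% and 2.84% of all genes were, or 8.67% together. Both knockdown arrays lay above both NU7441 arrays for 25 of the 59 genes and below them for 14, where 32.9% and 19.6% of all genes did. The 2 treatments also differ in duration and delivery, which cannot be told apart from the form of DNA-PKcs loss here. All 6 G2/M genes were higher after knockdown than under NU7441, as were CCNA2 and CCNE2 of the S-phase genes, CDKN3, E2F1, E2F8, RBL1 and CCNO. The log2 differences were 1.82 ± 0.39 for CDC25C (adjusted p = 0.0261), 1.71 ± 0.21 for CDKN3 (adjusted p = 0.00279) and 1.65 ± 0.17 for CCNA2 (adjusted p = 0.00181). CCNB1 was 1.05 ± 0.10 higher (adjusted p = 0.00132), with 1020 and 988 after knockdown against 450 and 519 under NU7441. The number of calls was 10 with only these groups in the model or without either control replicate, 37 without NU7441 replicate 2, and 0 without either knockdown replicate. RBL1 lost the call under 10 of 15 alternatives, CCNF and CCNE2 under 7, and CDC25C and CDC25B under 6. Over these alternatives the CDC25C difference ran from 1.09 to 3.01.

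The 4 genes lower after knockdown than under NU7441 were RBL2, CCNG2, CCNG1 and CCNI. RBL2 showed the largest difference of these (-1.37 ± 0.17, adjusted p = 0.00293), with 118 and 133 after knockdown against 296 and 354 under NU7441. CCNG2 was lower by 1.02 ± 0.16 (adjusted p = 0.00770), CCNG1 by 0.65 ± 0.11 (adjusted p = 0.0115) and CCNI by 0.42 ± 0.08 (adjusted p = 0.0191). None of the G1 or transcription genes passed in this comparison. The difference for CDK4 was -0.33 ± 0.12 (adjusted p = 0.116), for CDC25A 0.49 ± 0.24 (adjusted p = 0.225) and for CCNC 0.50 ± 0.22 (adjusted p = 0.176), so a difference between the treatments was not detectable for these 3 genes with 2 arrays each.

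The partners and regulators of these proteins were examined as a second list, of which 32 of 45 genes were measured. The list was chosen with earlier results of these data known, so its shares are descriptions and not a test. Under NU7441 13 fell (40.6%) and 3 rose (9.38%), where 22.4% of all genes were lower and 10.8% higher. Of the 10 E2F partners and subunits of the DREAM and MuvB complexes, 5 fell. These were LIN9 (-1.77 ± 0.28), MYBL2, which encodes B-MYB (-1.39 ± 0.18), TFDP2, a dimer partner of E2Fs (-1.32 ± 0.33), FOXM1, the G2/M transcription factor (-1.25 ± 0.23), and LIN54, the CHR-binding subunit (-0.83 ± 0.22). The subunits RBBP4 and LIN52 and the E2F partner TFDP1 did not pass, at 0.22 ± 0.10, -0.05 ± 0.25 and 0.10 ± 0.11. Nor did LIN37, another MuvB subunit, whose NU7441 arrays both lay above the controls (128 and 83.2 under NU7441, 81.0 and 98.6 after knockdown, and 62.9 and 66.6 in controls; 0.67 ± 0.26, adjusted p = 0.0675). DYRK1A, the kinase that promotes DREAM assembly, rose (0.53 ± 0.18, adjusted p = 0.0434). MYBL2 had 70.4 and 67.3 under NU7441, 136 and 131 after knockdown, and 183 and 177 in controls, so the 3 groups did not overlap.

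Of 7 measured genes that regulate CDK1 activity or the course and end of mitosis, 4 fell under NU7441. FBXO5, the inhibitor of the anaphase-promoting complex also known as EMI1, had 68.4 and 117 under NU7441, 227 and 183 after knockdown, and 392 and 348 in controls (-2.04 ± 0.25, adjusted p = 0.00103). CDC20, an activator of that complex, fell by 1.71 ± 0.25, PLK1, a mitotic kinase, by 1.43 ± 0.14, and WEE1, the kinase that holds CDK1 inactive, by 0.78 ± 0.16. WEE1 and the CDC25 phosphatases, which act on CDK1 in opposite directions, were thus both lower. CKS2, a small CDK-binding subunit, fell by 0.95 ± 0.09 (adjusted p = 4.09e-04), while the related CKS1B did not pass (-0.24 ± 0.11, adjusted p = 0.118). Among the ubiquitin ligase genes, DTL, FBXO4 and CUL3 fell, by 1.67 ± 0.38, 1.22 ± 0.29 and 0.87 ± 0.15, with FBXO4 at the lowest value of the arrays, 16, on NU7441 replicate 1.

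In the transcription branch, HEXIM1, the inhibitor of P-TEFb, and MED13, the subunit that tethers the kinase module to Mediator, rose under NU7441. HEXIM1 had 417 and 394 under NU7441, 219 and 252 after knockdown, and 230 and 246 in controls (0.77 ± 0.14, adjusted p = 0.00519). MED13 had 390 and 357 under NU7441, 258 and 257 after knockdown, and 249 and 228 in controls (0.65 ± 0.14, adjusted p = 0.00889). Both genes lie just above a mean log2 intensity of 8, where 39.0% of all genes were higher under NU7441. Their log2 fold changes also stayed below 0.822, the upper edge for all genes of like brightness. These 2 rises were thus common for their brightness and do not set this branch apart. For both genes the knockdown arrays were also lower than the NU7441 arrays in the direct comparison, at -0.79 ± 0.14 (adjusted p = 0.0136) for HEXIM1 and -0.54 ± 0.14 (adjusted p = 0.0445) for MED13. After knockdown 0 of the 32 partner genes passed limma's test, where 0.77% of all genes did. At an unadjusted p under 0.05, 1 was higher and 6 were lower, beside 6.68% and 12.9% of all genes.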

How the data were processed

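RNA from 6 samples in 3 groups of 2 was amplified as cDNA, biotin-labelled and hybridised to arrays, per the labels' protocols. The deposited table holds linear intensities, none below 16. How the authors summarised and normalized them, and the build, is not given in the sources used here, and whether 16 is an offset or a floor is unknown. Log2 was taken with nothing else rescaled. The platform annotation gave 1 symbol to 15835 of 44629 probesets and several to 0, and 28794 had no name here. The brightest probeset per gene left 14812 genes, all matched in the RefSeq table.

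A single model of all 6 arrays was fitted with limma 3.58.1 in R 4.3.3 (3 residual degrees of freedom, mean-variance trend, two-sided, Benjamini-Hochberg adjustment within each comparison, threshold 0.05). Values after ± are moderated standard errors. The number of arrays limits the precision. The fit was tested on simulated data whose spread was taken from the moderated variances of the fit, which favours the fit. That spread replaced raw variances per gene, with which the preset recovery was missed in some draws. The simulation thus cannot show how the fit handles the real spread. Values on every array are given for G1, S and G2/M genes, pocket proteins, E2F1, E2F7, E2F8, CDKN2A, the highest and lowest of each class against control, and genes called between the treatments. CCNH, CCNT1, CCNT2, CDK7, CDK8, CDK9, CDK19 and the partners RBBP4, LIN37, LIN52, TFDP1 and CKS1B were added after their values were seen. Members, lists and motifs were chosen with earlier results of these data known. Replicate numbers did not pair the samples (correlations of deviations -0.01, -0.01 and -0.07). Alternatives were quantile normalization, median centring, dim genes left out, no trend, the compared groups alone, 15 taken off, the mean of all probesets, array weights, a replicate block and leaving out each array.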

Additional observations from a re-analysis of the deposited data

How the results depend on the processing

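Calls among the 59 genes for NU7441 against control (29) stayed within 1.5 times under all alternatives except leaving out arrays, where they ran from 9 to 47. The 1 call for knockdown against control became 0 with median centring, without the trend, with 15 taken off, with the mean of all probesets and with a replicate block, 14 with the 2 groups alone, 9 with array weights, and 0 to 13 without single arrays. The 17 calls for knockdown against NU7441 became 10 with the 2 groups alone and 0 to 37 without single arrays. With a replicate block (numbers that do not pair the samples) the counts were 28, 0 and 16. No called gene changed direction.

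For NU7441 against control, the G1 cyclin median (0.37) was 0.56 after quantile normalization, 0.69 with median centring and 0.50 with 15 taken off. The transcription cyclin median was 0.76 with median centring, and the G2/M median -1.85 with 15 taken off. Without single arrays the ranges were 0.18 to 0.38 for G1, -2.17 to -1.25 for S, -1.77 to -1.14 for G2/M and 0.22 to 0.44 for transcription cyclins. For knockdown against control, G1 was 0.24 after quantile normalization, 0.24 with median centring, 0.11 with dim genes left out and 0.12 with 15 taken off. Median centring gave -0.21 for S, -0.02 for G2/M and 0.15 for transcription cyclins. The ranges without single arrays were 0.03 to 0.11, -0.49 to -0.36, -0.24 to -0.14 and -0.02 to 0.02. For knockdown against NU7441, transcription cyclins were at -0.24 after quantile normalization, -0.31 with median centring and -0.18 with 15 taken off, and G1 at -0.40 with median centring. The ranges without single arrays were -0.45 to -0.05 for G1, 0.86 to 1.85 for S, 0.95 to 1.31 for G2/M and -0.18 to 0.05 for transcription cyclins, the last value, without NU7441 replicate 2, on the other side of 0. Leaving out an array leaves 1 to stand for its group, assumed to vary like the others. The cause of these shifts was not tested.

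Of all calls under NU7441 against control, 67.4% were lower as deposited, 49.0% after quantile normalization and 32.1% with median centring; for knockdown against control 63.2%, 63.3% and 18.4%; for knockdown against NU7441 32.8%, 43.7% and 59.4%. Over all genes, the 114 calls for knockdown against control became 2843 with the 2 groups alone, 2663 with array weights, 423 with median centring, 199 after quantile normalization, 37 with the replicate block, 7 with 15 taken off and 4 without the trend. The 4917 for NU7441 against control became 1051 and 868 without control replicates 1 and 2 and 7845 without NU7441 replicate 2. The 1284 for knockdown against NU7441 became 472 with the 2 groups alone and 820 without the trend. Without single arrays it was 7 and 0 (knockdown replicates 1 and 2), 416 and 421 (control) and 2578 and 5101 (NU7441). For knockdown against control it was 3 and 1 (knockdown), 2 and 2 (control) and 2884 and 2855 (NU7441). Closeness to the lowest value of 16 limits the dim genes, whose differences depend most on an offset.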
